A study of Danio rerio with 30 samples.

Results

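The genes described here are those of the thrombocyte lineage, with itga2b at their head. They were chosen by gene symbol: every row of the count table whose symbol, with or without a final paralogue letter, on a list of 10 thrombocyte genes. The 9 symbols described here are itga2b, itgb3b, gp1bb, gp9, thbs1b, nfe2, fermt3b, f5 and vwf. The 10 symbols matched 13 rows of the 20631 genes in the table, and all 13 rows were among the 19930 genes that passed the low-count filter. Counts and medians over the group cover all 13 rows, and 12 of them are described one by one. ITGB3, FERMT3 and THBS1 each matched a pair of gene IDs, called copy 1 and copy 2 here in the order of their IDs. The symbol table did not say which copy carries which zebrafish paralogue letter, and reads could be split between near-identical copies.

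Thrombocytes are the nucleated blood cells that stop bleeding in fish, the counterpart of mammalian platelets. In the itga2b:GFP zebrafish line, cells with bright GFP are thrombocytes, while cells with low GFP include haematopoietic stem and progenitor cells (HSPCs). The integrin of the itga2b and itgb3 products binds fibrinogen, and the receptor GPIb-IX binds von Willebrand factor.

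RNA-seq read counts came from 30 libraries of sorted GFP-low cells of Tg(itga2b:GFP) zebrafish at 6 days post fertilization (dpf). The larvae were heterozygous for rps14 (rps14+/-), the gene of a small-subunit ribosomal protein, or wild type. Phenylhydrazine (Phz), which destroys red blood cells, was given at 1 µg/mL from 24 to 48 hours post fertilization, and 20 µM imiquimod, an agonist of the receptor TLR7, or its solvent DMSO followed for 4 days. Heterozygous groups held 4 libraries after Phz and imiquimod, 5 after Phz and DMSO, 3 with imiquimod alone and 4 with DMSO alone. Wild-type groups held 4, 3, 4 and 3 libraries in the same order. All 30 libraries carried the transgene, and they were gated on its GFP, not on the endogenous itga2b transcript itself. Because the itga2b promoter drives this GFP, the gate may bear on the levels of itga2b and the other thrombocyte genes. The part of the gate in their values was not tested. Per the labels' protocols, larvae of a group were pooled before sorting. The labels do not say that each replicate was a separate pool. The p-values here therefore cover only the spread among these libraries, which may be partly technical.

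Libraries held 5703056 to 15238153 counts (median 6894464). RPS14 had 100 to 346 CPM (the reads of a gene divided by all counts of its library and scaled to the usual common depth) in the 16 heterozygous libraries and 347 to 672 CPM in the 14 wild-type libraries, without overlap. Markers of several blood and tissue cells were present, among them the stem and progenitor cells that the GFP-low gate includes. Their summed levels over all libraries were 7078 to 33726 CPM for 7 neutrophil genes, 821 to 4145 CPM for 14 erythroid genes, 955 to 2803 CPM for 11 stem and progenitor genes and 355 to 2108 CPM for 17 macrophage genes. They were 21.8 to 122 CPM for 10 endothelial genes. The 11 exocrine pancreas genes summed to 419 to 6276 CPM in heterozygous libraries and 475 to 1483 CPM in wild-type libraries. A carboxypeptidase gene among them (CPA1, ENSDARG00000021339) averaged 748 ± 213 CPM in heterozygous and 815 ± 268 CPM in wild-type libraries (SD). The other 10 were all higher in the fit for genotype (smallest edgeR adjusted p = 0.068), and summed to 3.58 to 5048 CPM (median 43.2) in heterozygous and 2.38 to 222 CPM (median 8.72) in wild-type libraries. The highest heterozygous sum thus came mostly from these 10. Over the 11 exocrine pancreas genes the median genotype log2 fold change was 5.35, and 10 had an unadjusted edgeR p under 0.05. All 7 neutrophil genes had a genotype fold change below 0 (median log2 -0.31). The genotype median was 0.50 for the endothelial and 0.24 for the macrophage genes, against 0.02 over all genes. It was 0.04 for the stem and progenitor and -0.07 for the erythroid genes. None of these genes passed the test, and their part in the genotype values of the thrombocyte genes was not tested.

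No thrombocyte gene passed the test for genotype, Phz or imiquimod. In edgeR's quasi-likelihood test, with p-values adjusted by Benjamini-Hochberg over all genes tested and a threshold of 0.05, the count was 0 of 13 in each of 18 contrasts. These were the 3 effects averaged over the other factors, 12 effects within single conditions and 3 interactions of pairs of factors. Limma voom also called 0 of 13 in each contrast. DESeq2 called 0 as well, but its independent filtering gave an adjusted p to only 5 of the 13 for genotype averaged over conditions, 4 for genotype with imiquimod alone, 12 for Phz in wild-type imiquimod libraries and 7 for imiquimod in unstressed heterozygous libraries. With that filtering off, a setting chosen after seeing the data, all 13 had an adjusted p in each contrast and 0 were called. The background was low: 0.437% of all genes were called for genotype, 0.0201% for Phz and 0.00502% for imiquimod, and 0.0351% for the interaction of Phz with imiquimod. At an unadjusted p under 0.05 were 1 of the 13 thrombocyte genes for genotype, 2 of 13 for Phz and 1 of 13 for imiquimod. These shares were near those of all genes, at 8.98%, 12.4% and 8.98%.

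Directions were mixed within the group. For heterozygous over wild-type libraries 5 of the 13 genes had a log2 fold change above 0 (median -0.01), against 52.3% of all genes (median 0.02). For Phz over unstressed libraries 8 were above 0 (median 0.20), against 44.2% of all genes (median -0.06). For imiquimod over DMSO libraries 4 were above 0 (median -0.12), against 57.3% of all genes (median 0.06). The contrasts share libraries, so their values are not independent of each other. In these bulk samples, fewer cells of a type and less RNA per cell cannot be told apart.

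**Figure D1:**
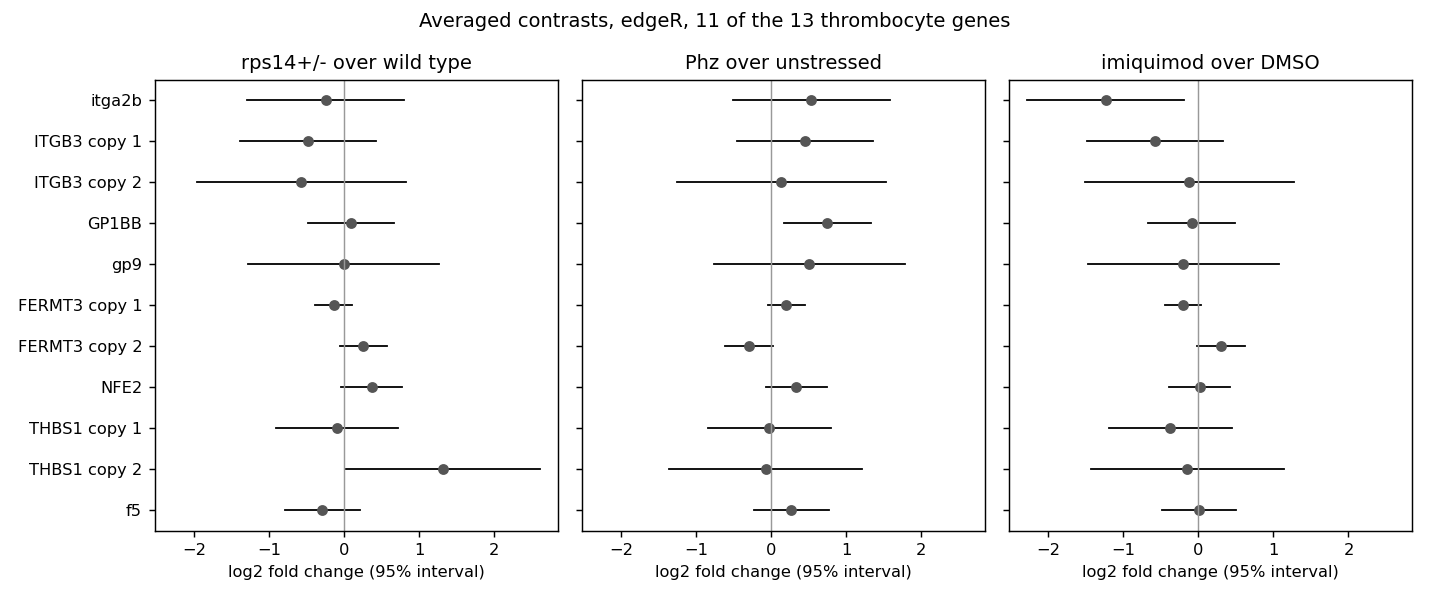
Log2 fold change with its 95% interval from edgeR's fit for 11 thrombocyte genes, in panels for rps14+/- over wild type, Phz over unstressed and imiquimod over DMSO. vwf is left out because 1 group had 0 reads. All intervals cross 0 except those of THBS1 copy 2 for genotype (1.32), GP1BB for Phz (0.75) and itga2b for imiquimod (-1.23), none of which passed after adjustment.

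The gene itga2b (ENSDARG00000018687) encodes the integrin subunit CD41, and its promoter drives the sorted GFP. Its endogenous transcript varied widely, with a mean of 9.19 ± 9.52 CPM (SD, n = 30), a lowest value of 0.269 CPM and a highest of 34.2 CPM. With Phz and imiquimod it had 1.26, 5.67, 2.14 and 10.4 CPM in heterozygous libraries, against 1.88, 34.2, 5.83 and 5.04 CPM in wild-type libraries. With Phz and DMSO it had 3.08, 22.6, 17.5, 8.78 and 16.7 CPM in heterozygous libraries, against 1.7, 3.73 and 13.4 CPM in wild-type libraries. The genotypes overlapped in both conditions. With imiquimod alone it had 1.85, 0.485 and 2.63 CPM in heterozygous libraries, against 13.2, 1.9, 1.53 and 2.1 CPM in wild-type libraries. With DMSO alone it had 10.4, 13.3, 14.2 and 33.5 CPM in heterozygous libraries, against 24.4, 0.269 and 2.08 CPM in wild-type libraries. Here too the genotypes overlapped, and a single wild-type library lay well above the others of its group both with imiquimod alone and with DMSO alone.

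By group mean, the order of itga2b began with heterozygous DMSO alone (17.8 ± 10.6 CPM, SD, n = 4), heterozygous Phz and DMSO (13.7 ± 7.73 CPM, n = 5) and wild-type Phz and imiquimod (11.7 ± 15.1 CPM, n = 4). Wild-type DMSO alone (8.93 ± 13.5 CPM, n = 3), wild-type Phz and DMSO (6.27 ± 6.24 CPM, n = 3) and heterozygous Phz and imiquimod (4.87 ± 4.17 CPM, n = 4) followed. Wild-type imiquimod alone (4.68 ± 5.68 CPM, n = 4) and heterozygous imiquimod alone (1.65 ± 1.08 CPM, n = 3) came last. Each gap between neighbours in this order was smaller than the larger of the pair's SDs.

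Imiquimod gave the smallest p of itga2b among the averaged effects. Its level was 6.01 ± 8.58 CPM (SD, n = 15) in imiquimod libraries and 12.4 ± 9.60 CPM (n = 15) in DMSO libraries, and its log2 fold change was -1.23 (95% interval -2.28 to -0.19, edgeR p = 0.023, adjusted p = 0.46). Without the wild-type DMSO library of 24.4 CPM the fold change was -0.55, and without the wild-type Phz and imiquimod library of 34.2 CPM it was -1.60. By limma voom, and by edgeR without the libraries numbered S1 to S6, 0 thrombocyte genes had an unadjusted p under 0.05 for imiquimod averaged over conditions. S1 to S6 are replicate 1 of every group except the Phz and DMSO groups. They include the wild-type DMSO library of 24.4 CPM, so leaving them out is not separate from leaving out that library. Its group then keeps libraries of 0.269 and 2.08 CPM of itga2b. For Phz over unstressed libraries the means were 9.62 ± 9.22 CPM (n = 16) and 8.70 ± 10.2 CPM (n = 14), with a log2 fold change of 0.54 ± 0.51 (SE). That Phz fold change was 1.26 without the wild-type DMSO library of 24.4 CPM. Without the wild-type Phz and imiquimod library of 34.2 CPM it was 0.17. Without the libraries numbered S1 to S6, itga2b had the smallest adjusted p of the group for Phz (edgeR adjusted p = 0.19). For heterozygous over wild-type libraries the means were 10.3 ± 9.16 CPM (n = 16) and 7.94 ± 10.1 CPM (n = 14), with a log2 fold change of -0.24 ± 0.51. The fitted genotype effect, an average of log2 fold changes over the 4 conditions, had the opposite sign to the difference of these pooled means. It turned to 0.46 without the wild-type DMSO library of 24.4 CPM.

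Some lists of cell type markers had imiquimod fold changes that lay mostly in a single direction. Of the 11 stem and progenitor genes, 10 had a fold change below 0 for imiquimod (median log2 -0.14), and of the 17 macrophage genes 14 had one above 0 (median 0.45), against a median of 0.06 over all genes. The median was 1.08 for the exocrine pancreas, 0.51 for the endothelial and 0.20 for the pronephros and kidney tubule genes. It was 0.05 for the erythroid, -0.02 for the neutrophil and -0.001 for the lymphoid genes. None of the genes in these lists passed the test. The smallest edgeR adjusted p was 0.14, in both the stem and progenitor and the macrophage list. The part of these genes in the itga2b values was not tested.

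Within unstressed heterozygous larvae the 3 imiquimod libraries (0.485 to 2.63 CPM of itga2b) all lay below the 4 DMSO libraries (10.4 to 33.5 CPM). The log2 fold change was -3.41 ± 1.08 (SE, edgeR adjusted p = 1). In that contrast 2.51% of all genes were lower without overlap, and of the thrombocyte genes only itga2b and GP1BB were. The imiquimod effect was more negative in heterozygous than in wild-type larvae by 2.42 ± 1.02 on the log2 scale, which did not pass as an interaction (edgeR adjusted p = 0.82). In unstressed heterozygous libraries the 11 stem and progenitor genes summed to 1144 to 1909 CPM with imiquimod and 1122 to 2084 CPM with DMSO. There the 11 exocrine pancreas genes summed to 1010 to 3150 CPM (median 3078) with imiquimod and 562 to 4046 CPM (median 746) with DMSO. None of these marker genes was at 0 throughout either group, and their part in the difference was not tested.

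**Figure D2:**
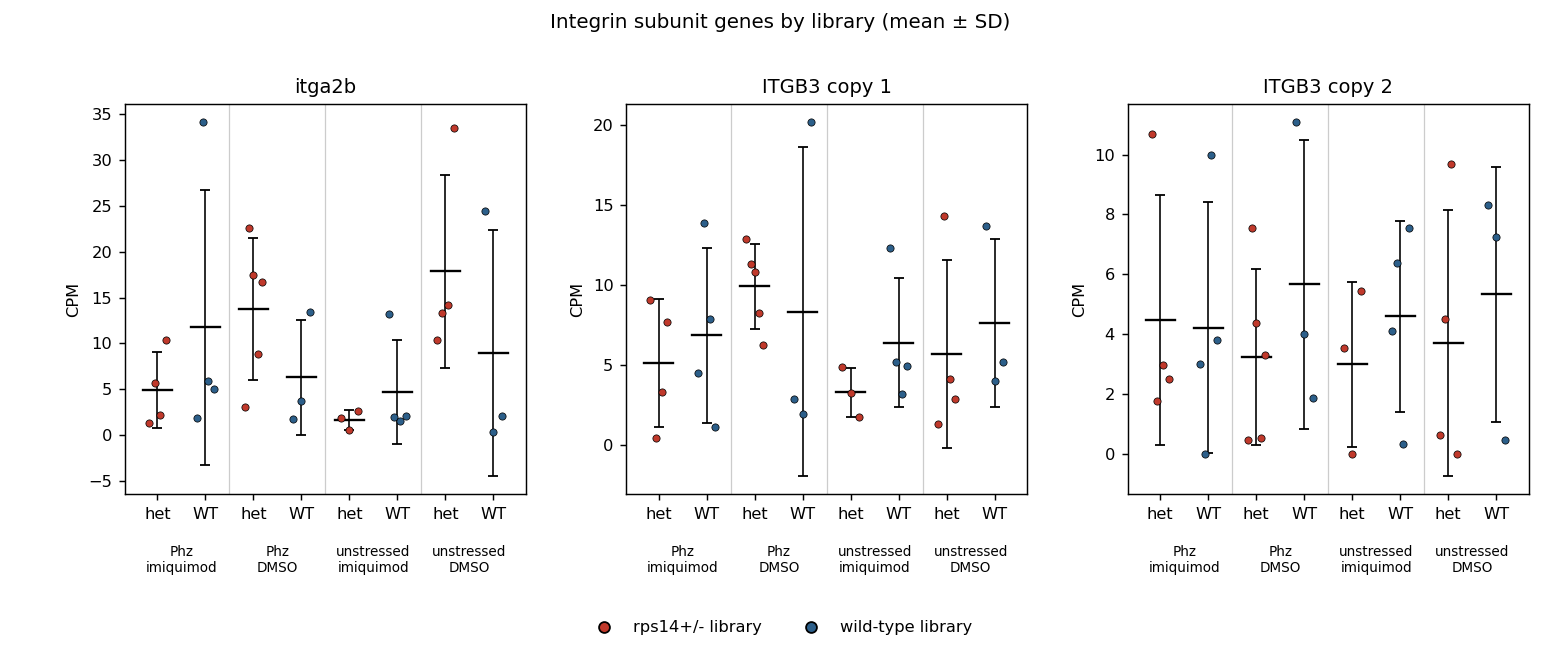
CPM of itga2b, ITGB3 copy 1 and ITGB3 copy 2 in each library (points), with heterozygous (het, red) left of wild-type (WT, blue) libraries in each condition. Bars are the group mean and SD. The 3 heterozygous libraries with imiquimod alone lie at 0.485 to 2.63 CPM of itga2b, below the 4 with DMSO alone, and 1 wild-type library reaches 34.2 CPM.

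ITGB3 encodes integrin beta 3, the partner of the itga2b product. Copy 1 (ENSDARG00000045070) ranged from 0.436 to 20.2 CPM and copy 2 (ENSDARG00000056767) from 0 to 11.1 CPM, with 3 libraries at 0 reads. Copy 1 averaged 6.41 ± 4.34 CPM in heterozygous and 7.21 ± 5.64 CPM in wild-type libraries (SD, n = 16 and 14), and 5.56 ± 3.93 CPM with imiquimod and 8.01 ± 5.60 CPM with DMSO (n = 15 each). Copy 2 averaged 3.61 ± 3.34 CPM in heterozygous and 4.87 ± 3.63 CPM in wild-type libraries. Neither copy had an unadjusted edgeR p under 0.05 in an averaged contrast, and in neither did any single condition separate its groups.

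GP1BB (ENSDARG00000074441) encodes the beta chain of GPIb, a part of the von Willebrand factor receptor. It averaged 26.7 ± 11.3 CPM in Phz libraries (SD, n = 16) and 16.9 ± 8.87 CPM in unstressed libraries (n = 14). The log2 fold change of 0.75 (95% interval 0.17 to 1.32) had the smallest p among the thrombocyte genes for Phz averaged over conditions (edgeR adjusted p = 0.27). The fold change stayed between 0.55 and 0.86 when each library was left out in turn.

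The Phz difference of GP1BB was seen with imiquimod. Among heterozygous libraries with imiquimod it had 46.8, 20.8, 29.9 and 25.6 CPM after Phz, against 14.8, 10.5 and 11.4 CPM unstressed. Among wild-type libraries with imiquimod it had 31, 26.7, 33.6 and 34.5 CPM after Phz, against 20.2, 7.08, 4.12 and 19.8 CPM unstressed. In both genotypes every Phz library lay above every unstressed one. The log2 fold changes were 1.35 ± 0.59 in heterozygous libraries (SE, adjusted p = 0.998) and 1.34 ± 0.54 in wild-type libraries (edgeR adjusted p = 0.68). In those contrasts 3.62% and 1.84% of all genes were higher without overlap.

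With DMSO the Phz and unstressed libraries of GP1BB overlapped. Heterozygous libraries had 11.3, 29.8, 8.41, 34.9 and 30.5 CPM after Phz, against 22.4, 21.1, 26.3 and 33.2 CPM unstressed. Wild-type libraries had 13, 40.2 and 9.37 CPM after Phz, against 23.7, 2.29 and 19.5 CPM unstressed. The Phz effect was larger with imiquimod than with DMSO by 1.20 ± 0.57 (SE, log2), which did not pass as an interaction (edgeR adjusted p = 0.55, background 8.85% of all genes at an unadjusted p under 0.05). Of the 14 erythroid genes, of interest because Phz destroys red cells, 12 had a Phz fold change above 0 averaged over conditions (median log2 0.36, against -0.06 over all genes), and 0 passed the test. They summed to 2180 to 3726 CPM after Phz and 1832 to 2035 CPM unstressed in heterozygous imiquimod libraries. In wild-type imiquimod libraries they summed to 1118 to 4145 CPM after Phz and 1311 to 2421 CPM unstressed. With DMSO they summed to 1376 to 2604 CPM (median 1758) after Phz and 1270 to 3257 CPM (median 2535) unstressed in heterozygous libraries. In wild-type DMSO libraries they summed to 2016 to 3713 CPM (median 3311) after Phz and 821 to 2728 CPM (median 983) unstressed. No erythroid gene was at 0 throughout any of the 4 imiquimod groups. SLC4A1 was at 0 throughout heterozygous Phz and DMSO and wild-type DMSO alone. The part of erythroid genes in the GP1BB values was not tested.

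The gene gp9 (ENSDARG00000090638) encodes GPIX, which sits beside GPIb in the complex. It averaged 2.93 ± 2.40 CPM (SD, n = 30) and had 0 reads in 3 libraries. Its Phz libraries with imiquimod lay above the unstressed ones in heterozygous larvae, with 2.64, 4.80, 2.02 and 8.20 CPM after Phz and 1.01, 0 and 1.75 CPM unstressed. In wild-type DMSO libraries the order was the other way, with 2.35, 1.80 and 0.803 CPM after Phz and 3.38, 2.55 and 2.53 CPM unstressed. The log2 fold changes of 2.28 ± 1.31 and -0.77 ± 1.37 (SE) did not pass (edgeR adjusted p = 0.998 and 0.91). In those directions 3.62% and 5.51% of all genes did not overlap. In wild-type imiquimod libraries the groups of gp9 overlapped, at 0 to 6.14 CPM after Phz and 1.21 to 3.60 CPM unstressed. They also overlapped in heterozygous DMSO libraries, at 0 to 9.80 CPM after Phz and 1.12 to 7.67 CPM unstressed.

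The gene vwf (ENSDARG00000077231) encodes von Willebrand factor, the ligand of GPIb, which endothelial cells also make. It was close to the detection limit, at 0 reads in 9 of 30 libraries and at most 6.91 CPM. All 3 wild-type Phz and DMSO libraries had 0 reads, which allows up to 0.402 CPM (3 counts per library, averaged, counting error only). Heterozygous Phz and DMSO libraries had 6.16, 1.96, 0, 0 and 0.447 CPM. Their mean was 4.26 times that floor of 0.402 CPM, and rested mainly on the library at 6.16 CPM. Their median of 0.447 CPM was close to the floor. Unstressed wild-type DMSO libraries had 1.23, 2.15 and 1.94 CPM, all above the floor, with a mean 4.40 times the floor. The wild-type Phz and imiquimod libraries had 0.878, 0, 2.58 and 0.123 CPM. Their mean was 2.22 times the floor, while the libraries at 0 and 0.123 CPM lay below it. These ratios take each group mean as exact, so they are not lower bounds on a difference. The vwf values rest on few reads, with 16 at most in an unstressed wild-type DMSO library. The edgeR adjusted p-values were 0.62 for genotype after Phz and DMSO, 0.44 for Phz in wild-type DMSO libraries and 0.53 for imiquimod in wild-type Phz libraries. In DMSO libraries of wild-type larvae the 10 endothelial genes summed to 48.1 to 85.7 CPM after Phz, with FLT4 and EGFL7 at 0, and 52.8 to 66.7 CPM unstressed, with EGFL7 at 0. Averaged over conditions, 8 of these 10 were below 0 for Phz (median log2 -0.30) and 8 above 0 for genotype (median 0.50). None of the 10 passed. Means of vwf were 1.00 ± 1.64 CPM in Phz and 1.68 ± 1.79 CPM in unstressed libraries (SD). They were 1.58 ± 2.17 CPM in heterozygous and 1.02 ± 0.963 CPM in wild-type libraries. The part of endothelial cells in the vwf values was not tested.

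THBS1 encodes thrombospondin-1, an adhesive protein of platelet alpha granules. Copy 2 (ENSDARG00000103775) had the smallest p of the group for genotype averaged over conditions. It averaged 5.03 ± 5.10 CPM in heterozygous libraries (SD, n = 16) and 2.16 ± 2.07 CPM in wild-type libraries (n = 14), with a log2 fold change of 1.32 (95% interval 0.03 to 2.61, edgeR p = 0.048, adjusted p = 0.55). After Phz and imiquimod it had 5.54, 3.93, 2.14 and 11.4 CPM in heterozygous libraries, against 1.13, 0, 1.9 and 0.369 CPM in wild-type libraries. That was the 1 condition in which the genotypes of THBS1 copy 2 did not overlap, where 2.57% of all genes were higher without overlap. These values rest on few reads, at 44, 27, 18 and 174 in heterozygous and 9, 0, 14 and 3 in wild-type libraries. The log2 fold change there was 2.64 ± 1.21 (SE), with an adjusted p of 1. With DMSO alone it had 1.96, 0.145, 8.81 and 18.4 CPM in heterozygous libraries, against 2.30, 0.134 and 0.447 CPM in wild-type libraries. The reads there were 16, 1, 51 and 115 in heterozygous and 15, 1 and 3 in wild-type libraries.

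THBS1 copy 1 (ENSDARG00000010785) had closer genotype means, with 12.03 ± 10.03 CPM in heterozygous libraries (SD, n = 16) and 10.9 ± 8.08 CPM in wild-type libraries (n = 14). After Phz, heterozygous libraries had 3.02, 4.51, 8.07 and 4.46 CPM with imiquimod, against 10.4, 30.4, 29.3, 4.20 and 10.3 CPM with DMSO. The imiquimod effect was more negative in heterozygous than in wild-type larvae by 2.1 ± 0.80 on the log2 scale (SE, edgeR adjusted p = 0.80), in the direction also seen for itga2b. Across all genes 5.91% had an unadjusted p under 0.05 for this interaction, and of the 13 thrombocyte genes these 2 did.

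The gene f5 (ENSDARG00000055705) encodes coagulation factor V, a cofactor of thrombin formation made mainly by the liver and stored in platelets. By group mean it was highest in wild-type Phz and DMSO libraries, at 72.0, 64.8 and 68.1 CPM. Heterozygous libraries of that condition had 31.6, 56.0, 53.2, 52.0 and 12.1 CPM, all below them. Unstressed wild-type DMSO libraries had 38.7, 23.4 and 38.9 CPM, and wild-type Phz and imiquimod libraries had 26.2, 62.9, 27.3 and 15.7 CPM. The wild-type Phz and DMSO group thus overlapped none of these 3 groups. The log2 fold changes were -0.80 ± 0.48 for genotype (SE, adjusted p = 0.71), 1.00 ± 0.53 for Phz (adjusted p = 0.52) and -1.04 ± 0.50 for imiquimod (edgeR adjusted p = 0.54). In those directions 1.37%, 4.55% and 2.74% of all genes did not overlap. THBS1 copy 2 was also without overlap in the last pair of contrasts, in the same directions. With imiquimod alone wild-type libraries had 39.2, 62.2, 45.1 and 65.4 CPM of f5, above the DMSO libraries, as did 5.47% of all genes. The first 3 contrasts rest on the same 3 libraries, and averaged over conditions f5 had 39.9 ± 18.9 CPM in heterozygous and 46.4 ± 19.1 CPM in wild-type libraries.

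**Figure D3:**
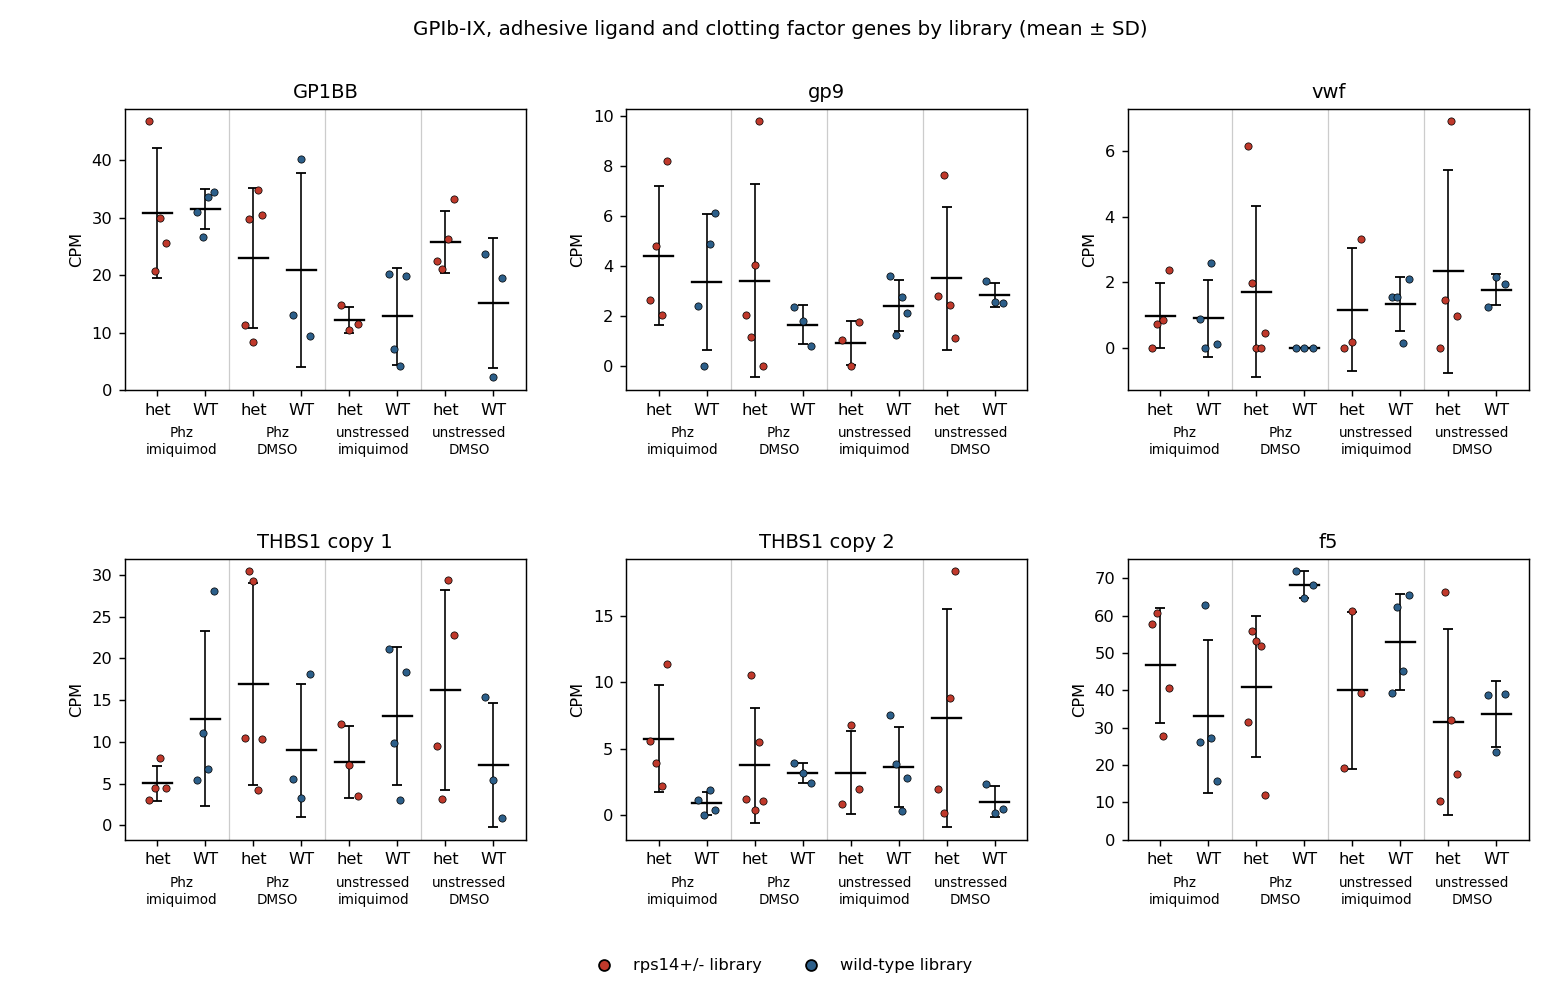
CPM of GP1BB, gp9, vwf, THBS1 copy 1, THBS1 copy 2 and f5 in each library (points), heterozygous (red) left of wild-type (blue) in each condition, with the group mean and SD. GP1BB in both Phz and imiquimod groups lies at 20.8 CPM or above, the 3 wild-type Phz and DMSO libraries lie at 0 for vwf, and for f5 they lie at 64.8 to 72.0 CPM.

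FERMT3 encodes kindlin-3, which switches integrins to their active state in blood cells. Its copies had the lowest SD relative to the mean of the 13 rows, at 0.223 times the mean for copy 1 (ENSDARG00000030938) and 0.321 times the mean for copy 2 (ENSDARG00000079267). Both are abundant, and their spread beside genes of like abundance is given below. Copy 1 had 190 ± 46.0 CPM in heterozygous libraries (SD, n = 16) and 191 ± 40.0 CPM in wild-type libraries (n = 14), and its 95% interval of the genotype effect ran from -0.38 to 0.11 on the log2 scale. Kindlin-3 also serves leukocytes, so its genes do not mark thrombocytes alone.

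FERMT3 copy 2 had 74.4 ± 21.4 CPM in Phz libraries (SD, n = 16) and 95.8 ± 29 CPM in unstressed libraries (n = 14), a log2 fold change of -0.29 ± 0.15 (SE, edgeR p = 0.064, adjusted p = 0.44). With imiquimod alone it had 142, 129 and 115 CPM in heterozygous libraries, against 99.0, 99.0, 95.2 and 95.7 CPM in wild-type libraries. The genotypes did not overlap there, as for 4.13% of all genes that were higher in that contrast. The log2 fold change was 0.33 ± 0.32 with an adjusted p of 1. The wild-type libraries with imiquimod had 92.0, 25.5, 86.2 and 63.1 CPM of copy 2 after Phz, below those unstressed, as for 3.65% of all genes.

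NFE2 (ENSDARG00000020606) encodes the p45 subunit of NF-E2, a transcription factor of late megakaryocyte and of erythroid development in mammals. It averaged 142 ± 50.2 CPM in heterozygous libraries (SD, n = 16) and 106 ± 52.4 CPM in wild-type libraries (n = 14), a log2 fold change of 0.37 ± 0.20 (SE, edgeR p = 0.076, adjusted p = 0.62). With DMSO alone it had 150, 123, 112 and 206 CPM in heterozygous libraries, against 93.4, 62.8 and 42.9 CPM in wild-type libraries. These groups did not overlap, and the log2 fold change was 1.03 ± 0.41 (edgeR adjusted p = 0.56). In that contrast 4.66% of all genes were higher without overlap. After Phz and DMSO the genotypes did overlap, with 93.2, 105, 90.2, 178 and 258 CPM in heterozygous libraries and 41.2, 216 and 155 CPM in wild-type libraries. For Phz in wild-type DMSO libraries the log2 fold change was 1.04 ± 0.44 (adjusted p = 0.44). The summed erythroid level in the unstressed DMSO groups was 1270 to 3257 CPM in heterozygous libraries and 821 to 2728 CPM in wild-type libraries. SLC4A1 was at 0 in all 3 of these wild-type libraries, and also throughout the heterozygous Phz and DMSO group. The part of erythroid cells in the NFE2 values was not tested.

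**Figure D4:**
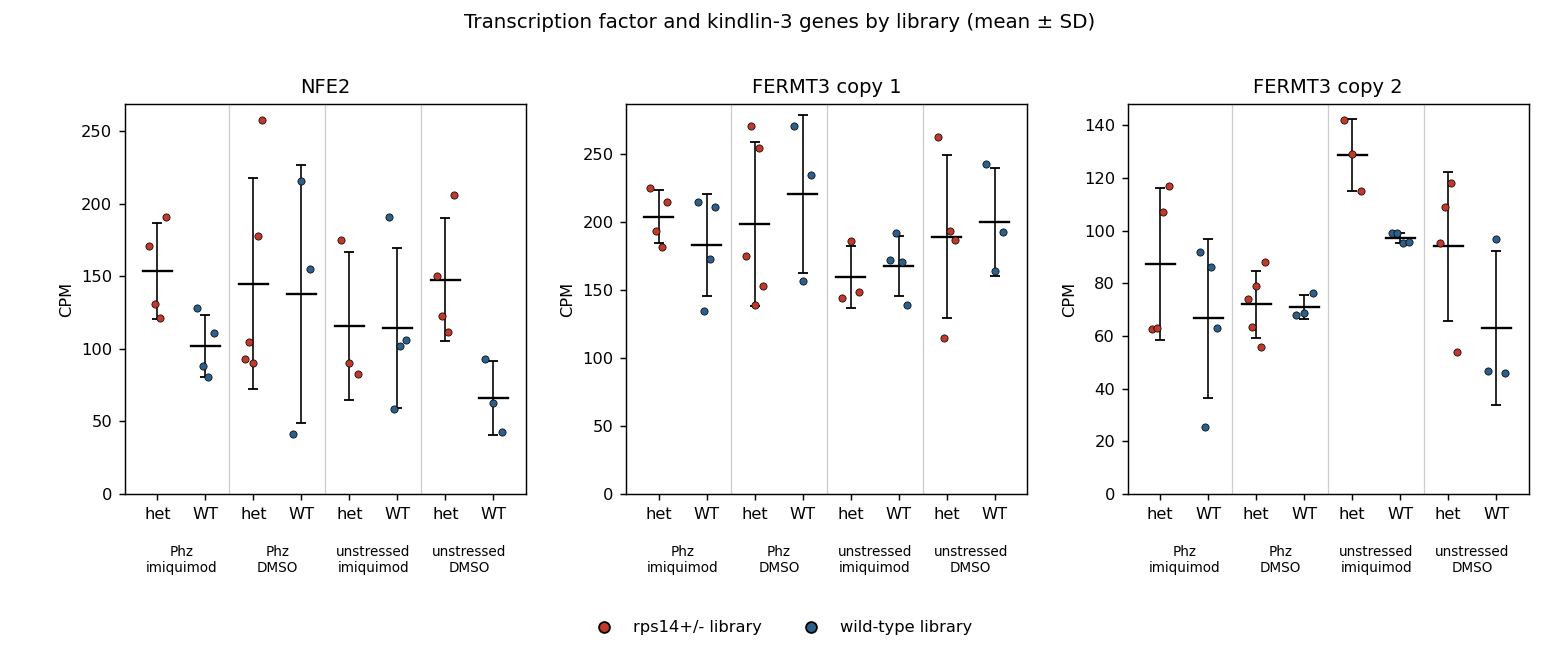
CPM of NFE2, FERMT3 copy 1 and FERMT3 copy 2 in each library (points), heterozygous (red) left of wild-type (blue) in each condition, with the group mean and SD. NFE2 with DMSO alone lies at 112 to 206 CPM in heterozygous and 42.9 to 93.4 CPM in wild-type libraries, while the genotypes of FERMT3 copy 1 overlap in every condition.

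Counted over the 12 single-condition contrasts, 11 of 156 tests of thrombocyte genes had an unadjusted p under 0.05 (7.05%), close to the 6.40% of all genes. Groups were without overlap in 17 of the 156 (10.9%), against 5.68% over all genes. The 156 tests reuse the same libraries and are not independent. No gene of the group separated the genotypes in more than 1 of the 4 conditions.

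Several thrombocyte genes varied more between replicates than genes of like abundance. The biological coefficient of variation (edgeR's estimate of the spread between replicates beyond counting error) was 0.896 for itga2b, higher than that of 86.0% of the 1184 genes within 0.25 log2 units of its level. NFE2, at 0.388, exceeded 93.4% of its 560 neighbours in level, f5 exceeded 91.2%, GP1BB 81.0% and THBS1 copy 1 79.4%. FERMT3 copy 1 exceeded 65.4% and FERMT3 copy 2 72.5%. For ITGB3 copy 2 the share was 75.0%. It was 53.5% for vwf, 50.8% for THBS1 copy 2, 48.5% for ITGB3 copy 1 and 26.3% for gp9.

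Over the 78 pairs of the 13 genes, Spearman's rho across the 30 libraries had a median of 0.02, with 45 pairs above 0 and 1 above 0.5. The correlation of itga2b with each of the other 12 genes was tested on log2 CPM by permutation, adjusted over these 12 relations. THBS1 copy 1 passed with a rho of 0.52 (permutation p = 0.0039, adjusted p = 0.046) and a Pearson r of 0.50 (permutation p = 0.0056, adjusted p = 0.052). Within the libraries numbered S1 to S6 (n = 6) its rho was 0.77. In the same 6 libraries gp9 also had a rho of 0.77 with itga2b and vwf 0.76, against 0.03 and 0.008 over all 30. Without S1 to S6 the rho of THBS1 copy 1 was 0.46 (adjusted permutation p = 0.087). Its r was 0.52 without the 2 libraries farthest from the median of itga2b. The relation did not pass on deviations from the group means (rho 0.42, adjusted permutation p = 0.24). It no longer passed in 16 of the 30 analyses that each left out 1 library, where rho ran from 0.476 to 0.563 over all 30. These 16 libraries were replicates 1 and 3 of heterozygous Phz and imiquimod, 2 and 3 of wild-type Phz and imiquimod, 1, 2, 3 and 5 of heterozygous Phz and DMSO, 1 and 3 of wild-type Phz and DMSO, 1 and 3 of wild-type imiquimod alone, 1, 3 and 4 of heterozygous DMSO alone and 1 of wild-type DMSO alone.

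ITGB3 copy 1, the partner subunit, had a rho of 0.43 with itga2b (permutation p = 0.018, adjusted p = 0.11) and an r of 0.36 (adjusted permutation p = 0.12). NFE2 had a rho of 0.32 (adjusted permutation p = 0.27) and GP1BB a rho of 0.28 (adjusted permutation p = 0.32). FERMT3 copy 2 ran the other way, with a rho of -0.38 (adjusted permutation p = 0.17) and an r of -0.45 (adjusted permutation p = 0.052). A further 6 genes (the second copies of ITGB3 and THBS1, gp9, vwf, FERMT3 copy 1 and f5) had a rho with itga2b between -0.11 and 0.13. Over all 19929 other genes tested the median rho with itga2b was -0.03 and 0.256% were above 0.5. All these values share the 30 libraries and their depth.

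**Figure D5:**
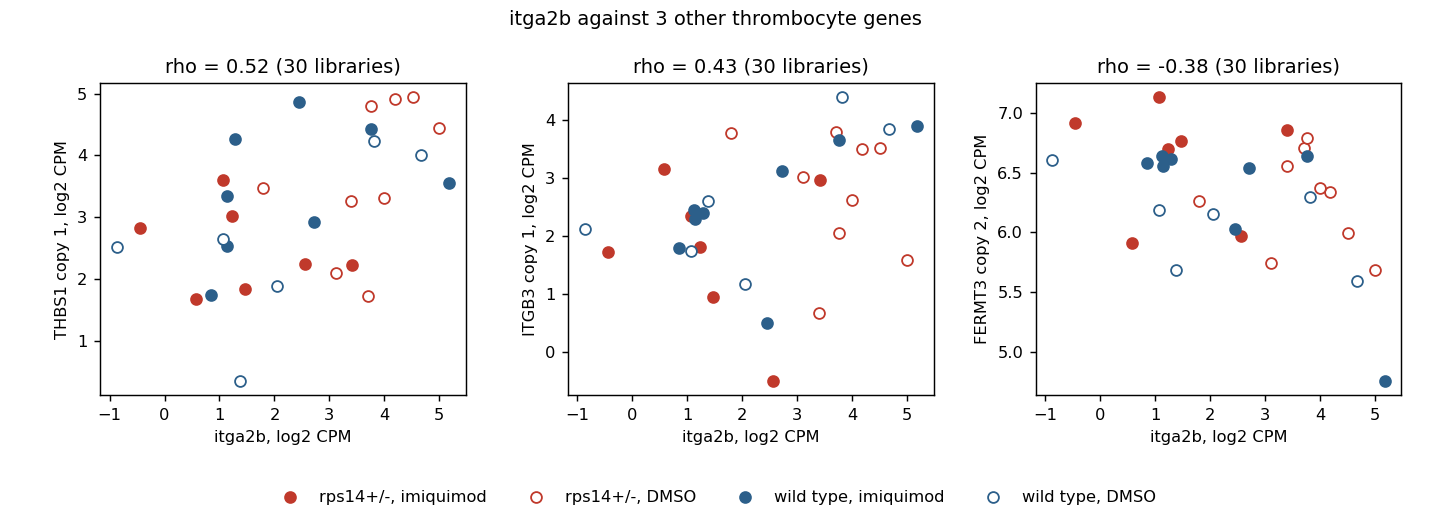
Log2 CPM of THBS1 copy 1, ITGB3 copy 1 and FERMT3 copy 2 (vertical axes) against log2 CPM of itga2b (horizontal axes), 1 point per library. Filled points are imiquimod and open points DMSO libraries, red heterozygous and blue wild type. The points scatter widely, with a rho of 0.52, 0.43 and -0.38 from left to right.

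Of 10102 genes with a mean of at least 5 CPM and an informative symbol, the 10 whose levels ran most like itga2b over the 30 libraries are given as a description with no test. POLR2E, a subunit of RNA polymerases, had the highest rho at 0.72, and its own level ran from 32 to 99.3 CPM. ELL2, a transcription elongation factor, followed at 0.65, then dhrs4, a dehydrogenase/reductase, at 0.62. The genes commd8 and STK11 were both at 0.62, STK11 encoding the kinase LKB1, and the ubiquitin-conjugating enzyme gene UBE2E3 at 0.59. RCBTB2 and mrpl30, a mitochondrial ribosomal protein gene, were at 0.59, CAT (catalase) at 0.58 and OPA1, a gene of mitochondrial fusion, at 0.57. No thrombocyte gene was among these 10. On deviations from the group means their rho with itga2b was lower for all but RCBTB2 (0.62), at 0.49 for POLR2E, 0.37 for OPA1 and 0.33 for commd8.

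Summed marker levels of cell types were set against itga2b in the same way, as 8 lists plus total counts and genes detected. The stem and progenitor list marks cells that the GFP-low gate itself includes. None of the 10 relations passed after adjustment. The stem and progenitor sum had a rho of 0.45 (permutation p = 0.013, adjusted p = 0.13) and an r of 0.45 (adjusted permutation p = 0.068). The lymphoid sum had a rho of -0.41 (adjusted permutation p = 0.13). The endothelial sum and the pronephros and kidney tubule sum each had a rho of -0.35 (adjusted permutation p = 0.15). On deviations from the group means rho was -0.29 for the lymphoid, -0.40 for the endothelial and -0.41 for the pronephros and kidney tubule sum. The erythroid sum had a rho of 0.08 (adjusted permutation p = 0.82) and total counts -0.01 (adjusted permutation p = 0.96).

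Other genes of thrombocyte development and function were read from 6 wider lists. They held 68 genes, of which 67 were tested, and 0 rose and 0 fell in each of the 18 contrasts by edgeR's test. At an unadjusted p under 0.05 there were 8 for genotype, 13 for Phz and 5 for imiquimod, against 8.98%, 12.4% and 8.98% of all genes. For Phz 22 of the 67 had a fold change above 0, with a median log2 of -0.11 against -0.06 over all genes. For imiquimod 45 were above 0 (median 0.07, against 0.06 over all genes) and for genotype 31 (median -0.02, against 0.02).

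Among transcription factors, FLI1, an activator of megakaryocyte genes, averaged 68.0 ± 20.5 CPM with imiquimod and 96.1 ± 21.9 CPM with DMSO (SD, n = 15 each). Its log2 fold change was -0.52 ± 0.14 (SE, edgeR adjusted p = 0.24). In cytokine signalling, JAK2, a kinase that relays cytokine receptor signals, averaged 119 ± 43.4 CPM with imiquimod and 93.8 ± 17.5 CPM with DMSO (edgeR adjusted p = 0.55). The gene sh2b3, encoding the adaptor LNK that restrains this kinase, averaged 68.3 ± 17.5 CPM with imiquimod and 56.9 ± 11.4 CPM with DMSO (edgeR adjusted p = 0.55). For both genes the difference of the means was smaller than the SD of the imiquimod libraries.

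For Phz, 5 of the 10 genes tested of the prostanoid and cytoskeleton list had a fold change above 0 and 5 below (median log2 -0.05, against -0.06 over all genes). Of the 13 integrin signalling genes 2 were above 0 and 11 below (median -0.14). Other lists leaned the same way, with 1 above 0 and 9 below for granules and coagulation (median -0.17). Receptors and surface proteins had 5 above and 12 below (median -0.16). Transcription factors had 6 above and 5 below (median 0.17), and cytokine signalling genes 3 and 3 (median -0.04). None passed the test. The genes named next, from the prostanoid and cytoskeleton list and the integrin signalling list, are among those with the smallest p. The gene flna, encoding filamin A, which ties GPIb to actin, averaged 113 ± 27 CPM in Phz libraries (SD, n = 16) and 162 ± 46.9 CPM in unstressed libraries (n = 14). Its log2 fold change of -0.47 ± 0.10 (SE) had the smallest adjusted p of the wider lists in the averaged contrasts (edgeR adjusted p = 0.11). MYH9 (ENSDARG00000001014), non-muscle myosin heavy chain, averaged 194 ± 49.2 CPM in Phz and 254 ± 66.4 CPM in unstressed libraries (edgeR adjusted p = 0.16). The kinase gene SYK averaged 203 ± 35.5 CPM in Phz and 247 ± 59.7 CPM in unstressed libraries, and the actin regulator gene VASP 47.4 ± 12.5 CPM in Phz and 57.5 ± 9.34 CPM in unstressed libraries (edgeR adjusted p = 0.36 and 0.39). These genes act in many cell types. All 7 neutrophil genes also had a Phz fold change below 0 (median log2 -0.36, 0 passing the test), and their part in these values was not tested.

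Of surface receptors, F2RL2 (ENSDARG00000079472), a thrombin receptor family gene, averaged 16.4 ± 6.57 CPM in Phz libraries and 30.3 ± 15.7 CPM in unstressed libraries (SD, log2 fold change -0.82 ± 0.26, edgeR adjusted p = 0.18). TBXAS1, encoding thromboxane synthase, lay the other way, with 38.9 ± 12.5 CPM in Phz and 28.9 ± 10.8 CPM in unstressed libraries (0.56 ± 0.18, edgeR adjusted p = 0.19). The thromboxane receptor gene TBXA2R averaged 9.70 ± 5.02 CPM in heterozygous and 6.07 ± 3.37 CPM in wild-type libraries (0.79 ± 0.33, edgeR adjusted p = 0.44). RASGRP2 (ENSDARG00000062328), encoding the exchange factor that activates Rap1 ahead of integrin activation, averaged 36.4 ± 5.51 CPM in heterozygous and 46.4 ± 13.3 CPM in wild-type libraries (-0.45 ± 0.14, edgeR adjusted p = 0.20). The granule proteoglycan gene srgn averaged 553 ± 126 CPM in heterozygous and 677 ± 257 CPM in wild-type libraries (edgeR adjusted p = 0.38).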

How the data were processed

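Whole-number counts per gene, deposited by the authors without normalization, were used as given. Per the submitters' processing notes, the build was GRCz11, and the tools named there are HISAT2 2.1.0, featureCounts (Subread 2.0.0), Trimmomatic 0.39, SAMtools 1.9, FastQC 0.11.9 and DESeq2. Libraries were Smart-seq2, per the labels' protocols. The annotation release and the use of strand are not given in the sources used here, so antisense reads cannot be told apart. A table pairing gene IDs with symbols matched 19528 IDs.

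Counts were fitted in R 4.3.3 with edgeR 4.0.16 (TMM factors 0.896 to 1.07, filterByExpr, robust quasi-likelihood test) in 1 model of 8 groups and checked on simulated data. Levels are CPM over the library total; correlations used TMM-scaled log2 CPM with a prior count of 2 and 100000 two-sided permutations. Standard errors are Wald errors from the fit. DESeq2 1.42.0, limma 3.58.1 (voom), RLE factors, no filter, a replicate block, library numbers S1 to S6 as a term or left out, and each library left out were the alternatives.

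The members and lists were chosen with earlier results of these data known. Named genes were all members but 1, which is not reported here, up to 3 per wider list by smallest p in the averaged contrasts, and the 10 genes most like itga2b by rho. The floor given for vwf covers counting error only, and the reads carry no molecular identifiers. Intervals and standard errors come from the fit, which includes the spread between libraries.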

Additional observations from a re-analysis of the deposited data

Results flagged for a closer look

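The 13 genes were each examined in the 5 groups of 4 or 5 libraries. A single library stood apart from the others (the gap to its nearest neighbour over the range of the group, Dixon's criterion at 95%) in 4 of these 65 gene and group combinations, against about 5% by chance. Of the 4, 3 fell in the 5 groups of itga2b and 1 in those of ITGB3 copy 2. The criterion was applied to CPM, and its 5% holds for normally distributed values. Levels of itga2b were skewed, with a median of 5.35 CPM and a mean of 9.19 CPM over the 30 libraries. How many flags come from the scale used was not tested. The genes share libraries, so the 65 are not independent. For itga2b, replicate 4 of the heterozygous DMSO group had 33.5 CPM, while the other 3 had 10.4 to 14.2 CPM. Replicate 2 of the wild-type Phz and imiquimod group had 34.2 CPM of itga2b, while the others had 1.88 to 5.83 CPM. Replicate 1 of the wild-type group with imiquimod alone had 13.2 CPM of itga2b, while the others had 1.53 to 2.1 CPM. ITGB3 copy 2 in replicate 1 of the heterozygous Phz and imiquimod group had 10.7 CPM, while the others had 1.74 to 2.97 CPM.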

How the results depend on the processing

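The count of 0 thrombocyte genes called held in all 18 contrasts under RLE factors, DESeq2 (with and without independent filtering), limma voom, no filter, the replicate block, the S1 to S6 term, without S1 to S6, and in the 30 analyses without 1 library. The number of all genes called was 87 for genotype, 4 for Phz and 1 for imiquimod. It was 259, 167 and 54 by DESeq2, 227, 159 and 54 by DESeq2 without independent filtering (chosen after seeing the data), 14 for Phz and 5 for imiquimod by voom, 13 for Phz with the S1 to S6 term, and 2 for Phz and 2 for imiquimod without S1 to S6. Leaving out 1 library gave 47 to 117, 0 to 8 and 0 to 5, moving the count by over 1.5 times for 3, 15 and 6 of the 30 libraries. The cause of these differences was not tested.

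Deviations of same-numbered libraries of different groups correlated weakly (94 pairs, -0.20 to 0.21, median 0.06, 20 pairs over 0.1), against a median of -0.03 over 298 other pairs, so the numbers were not taken to pair the libraries. Only 7 of 30 libraries correlated best with their own number. With the replicate block 115 genes were called for genotype, 0 for Phz and 2 for imiquimod, and signs turned for gp9 genotype (0.028), THBS1 copy 1 Phz (0.00472), THBS1 copy 2 Phz (0.00551) and f5 imiquimod (-0.072).

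Other log2 fold changes that changed sign, none called, were these. By voom they were itga2b genotype 0.48, THBS1 copy 1 genotype 0.037 and Phz 0.13, THBS1 copy 2 Phz 0.26 and imiquimod 0.13, and GP1BB imiquimod 0.12. Without a filter gp9 genotype was 0.00368. With the S1 to S6 term THBS1 copy 1 Phz was 0.11, copy 2 Phz 0.017 and NFE2 imiquimod -0.088. Without S1 to S6, which also leaves out the wild-type DMSO library of 24.4 CPM of itga2b, itga2b genotype was 0.79. In the same fit gp9 genotype was 0.089 and NFE2 imiquimod -0.16. There THBS1 copy 1 genotype was 0.17 and Phz 0.57, and copy 2 Phz was 0.28 and imiquimod 0.085. Leaving out 1 library, ranges that crossed 0 were, for genotype, itga2b -0.42 to 0.46, GP1BB -0.036 to 0.31, gp9 -0.22 to 0.15 and THBS1 copy 1 -0.22 to 0.20. For Phz they were ITGB3 copy 2 -0.10 to 0.42, THBS1 copy 1 -0.25 to 0.29 and copy 2 -0.30 to 0.34. For imiquimod they were ITGB3 copy 2 -0.35 to 0.14, GP1BB -0.22 to 0.12, gp9 -0.41 to 0.012, NFE2 -0.10 to 0.12, THBS1 copy 2 -0.44 to 0.24 and f5 -0.12 to 0.18.

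Of the correlations with itga2b, 1 passed as reported, 0 on deviations from group means, 0 without S1 to S6 (THBS1 copy 1 rho 0.46, adjusted permutation p = 0.087), and 0 to 1 when 1 library was left out. ITGB3 copy 1 passed without replicate 4 of the heterozygous DMSO group (rho 0.54, adjusted permutation p = 0.036). The rho of FERMT3 copy 1 (0.02) was -0.002 with RLE factors, -0.13 on deviations and -0.039 without S1 to S6. On deviations ITGB3 copy 2 was 0.011 and f5 0.14, and without S1 to S6 gp9 was -0.11 and vwf -0.14. Leaving out 1 library, rho ran from -0.0505 to 0.14 for gp9, -0.0533 to 0.0859 for vwf, -0.0512 to 0.12 for FERMT3 copy 1 and -0.12 to 0.0394 for f5. The genes vwf, gp9 and the second copies of ITGB3 and THBS1 each had 0 reads in at least 1 library. The part of library depth in these zeros was not tested.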

Other observations

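The other genes named from the wider lists, none of which passed the test, are given here by their levels. MAFG (ENSDARG00000018109), the small Maf partner of NF-E2, averaged 1.54 ± 1.85 CPM in heterozygous and 0.454 ± 0.641 CPM in wild-type libraries (SD, edgeR adjusted p = 0.40). CD151 (ENSDARG00000038288), a tetraspanin of the integrin complex, averaged 1.16 ± 1.83 CPM in heterozygous and 0.193 ± 0.422 CPM in wild-type libraries (edgeR adjusted p = 0.25). The factor gene bcl11ab averaged 0.886 ± 0.775 CPM in Phz and 1.95 ± 1.15 CPM in unstressed libraries (edgeR adjusted p = 0.40). LYN, a Src family kinase gene, averaged 20.6 ± 9.86 CPM in Phz and 26.1 ± 14 CPM in unstressed libraries (edgeR adjusted p = 0.71). VAMP8, of the granule release machinery, averaged 225 ± 53.2 CPM in heterozygous and 249 ± 53.6 CPM in wild-type libraries (edgeR adjusted p = 0.60). The factor XIII gene f13a1b averaged 329 ± 76.2 CPM in Phz and 375 ± 85.3 CPM in unstressed libraries (edgeR adjusted p = 0.51).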
